A study of Penicillium oxalicum with 10 samples.

Results

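Gene levels in a strain of the mould Penicillium oxalicum labelled as a deletion of flbE were compared with those of its wild type, M12. The comparison took every gene with a mean of at least 1 RPKM over the 10 libraries of the study, which 9134 of the 9859 listed genes reached. RPKM is the authors' deposited level, in reads per kilobase of coding length and scaled to the read total of the library. The 725 other genes were left out, and at the edge of the filter PDE_09743 passed with a mean of 1.004 RPKM while PDE_08381, at 0.999 RPKM, did not. The study used digital gene expression sequencing of RNA from the wild type and from single deletions, by label, of swi6, stuA, abaA, wetA and the 5 genes flbA to flbE. Conidia of each strain were grown for 20 h at 30 °C in modified Czapek medium containing 2% glucose, and the mycelium was then kept in new medium for 48 h, collected on filter paper and extracted with the RNAiso reagent. Both strains compared here had this treatment, and they differ, as far as the labels say, by the flbE deletion alone. Each genotype is 1 library, and the number of cultures or transformants behind it is not given in the sources used here.

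Most of what is known of FlbE comes from Aspergillus nidulans, where its loss leaves a fluffy colony that forms conidia late and sparsely. There FlbE is found with the transcription factor FlbB at the tip of growing hyphae. FlbB and FlbE act upstream of flbD, and FlbB and FlbD together activate brlA, whose product is the central activator of conidiophore formation. Dihydroxynaphthalene melanin, a pigment of conidia in many moulds, is made from a polyketide by reductases and scytalone dehydratase.

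The wild-type library held 5.15 megareads and the flbE deletion library 7.26 megareads, and the other 8 held 3.10 to 7.598. A count of 3 reads on a gene of 1 kilobase was worth 0.582 RPKM in wild type, against 0.413 in the flbE deletion. With no replicate there is no spread between cultures and no test, so each result against wild type sets 2 libraries side by side, not 2 genotypes. Differences are on the log2(RPKM + 1) scale, flbE deletion minus wild type, and a gene was said to be higher or lower at 2-fold or more on that scale. Folds are plain ratios of RPKM, and the range in parentheses after a fold is its 95% counting interval, which covers counting error only. The wild-type library stood apart from all 9 others by at least 2-fold above for 204 genes and below for 117 genes. It was not alone in this: the flbA, swi6, stuA and flbC deletions had 191, 172, 160 and 133 genes above. Below they had 1260, 104, 45 and 10 genes. How far the results below rest on the wild-type library was not tested. The levels of the other 8 deletions are given beside those of flbE for part of the named genes. Where they are not given, and for list counts and medians, the values compare the 2 libraries only. A gene named FlbD and a gene of the TEA family of AbaA were read in the libraries labelled as their deletions, which are therefore called here by their labels only.

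No gene in the table carries the name flbE, so the deletion was looked for by its reads. PDE_00253, a gene without a name and with a coding length of 618 bases, was the single gene with at most 2 reads in the flbE deletion library and at least 10 reads in each of the other 9. It had 175 reads in wild type, or 55.0 RPKM, and 1 read in the flbE deletion, or 0.223 RPKM. The other 8 deletions had a lowest of 15.1, a median of 69.4 and a highest of 106 RPKM. PDE_00253 was thus well read in every library but that of the flbE deletion, where it was 247-fold lower (43.7 to 9803). Reads covered 8.09% of the gene there, against 83.17% to 99.84% in the other 9 libraries. The next lowest ratio of the flbE deletion to the lowest of the other libraries was 0.365, for PDE_01411, a putative trehalose phosphate synthase gene with 1.37 to 82.0 RPKM in the other 8 deletions. The search gave 0 genes in the libraries labelled flbB, flbC, flbD, wetA and abaA deletion, 1 in swi6, 4 in stuA, 4 in wild type and 211 in flbA. Whether PDE_00253 is flbE was not tested, since the files give it no name. Of its neighbours by locus number, looked at after the value of PDE_00253 was seen, PDE_00254, an AP-2 complex subunit gene, had 70.5 RPKM in wild type against 61.0 in the flbE deletion, and PDE_00255 had 41.2 and 62.1 RPKM. On the other side PDE_00252 fell from 57.6 to 25.2 RPKM, and PDE_00251, named transcriptional regulator, fell from 53.1 to 17.1 RPKM.

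Over all 9134 genes, 993 were higher in the flbE deletion library (10.9%) and 1940 were lower (21.2%), together 32.1%. At 4-fold the counts were 377 higher and 421 lower, and at 10-fold 132 and 155. The median gene differed by -0.40. Relative to that median, 1523 genes were higher (16.7%) and 973 lower (10.7%). The balance of the 2 directions rests on the scaling: median-of-ratios scaling gave 1449 higher and 1047 lower, and upper-quartile scaling 1305 higher and 1235 lower. For the gene lists below, counts of genes that rose or fell are on the unshifted scale, medians are relative to the median gene, and the counts relative to the median gene are given beside them. In RNA from whole mycelium, fewer cells of a kind and less RNA per cell cannot be told apart.

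**Figure D1:**
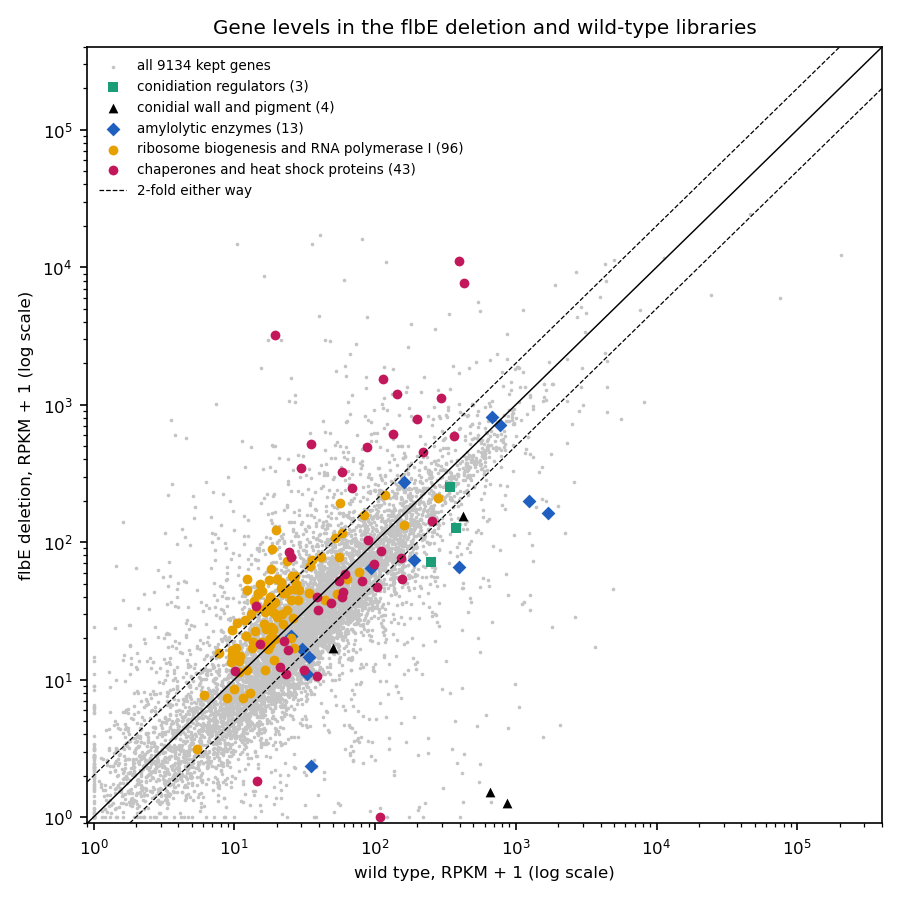
Level of each of the 9134 kept genes in wild type (horizontal) and in the flbE deletion library (vertical), as RPKM + 1 on log scales, with 5 gene lists coloured and dashed lines at 2-fold. The pigment and amylolytic genes that moved lie below the lines, the most abundant chaperone genes and many ribosome biogenesis genes above them.

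The named conidiation regulators and the pigment genes were lower in the flbE deletion library or did not pass 2-fold; none was higher. BrlA (PDE_00087), the zinc finger activator of conidiation, had 248 RPKM in wild type and 70.8 in the flbE deletion, and the other 8 deletions had a lowest of 0.249, a median of 86.0 and a highest of 107 RPKM. Its transcripts were 3.50-fold lower (3.19 to 3.83) in the flbE deletion, where 667 reads still covered 99.85% of the gene. All 9 deletion libraries lay below wild type, but the flbE deletion stayed far above the flbA, stuA and swi6 deletions, which had 0.249, 1.30 and 1.79 RPKM. PDE_04095, named SOK2 after a regulator of the APSES family, to which StuA belongs too, had 377 RPKM in wild type and 125 in the flbE deletion. It was all but unread in the library labelled stuA deletion, at 0.0733 RPKM, and had 81.1 to 256 RPKM in the remaining 7; whether PDE_04095 is stuA was not tested. It was 3.02-fold lower (2.85 to 3.20) in the flbE deletion, a level close to those of the flbB and wetA deletions (121 and 120.3 RPKM). FlbD (PDE_03008), the Myb-like regulator that acts after FlbB in Aspergillus nidulans, had 341 RPKM in wild type against 253 in the flbE deletion. Its difference of -0.43 did not reach 2-fold and was close to that of the median gene, and the other 8 libraries spread from 8.23 to 524 RPKM. A second gene named BrlA (PDE_00079) had 3 reads in each of the 2 libraries and did not pass the filter.

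The 4 kept genes of the conidial wall and pigment list all fell, and a pair of them all but disappeared. Scytalone dehydratase PDE_09236 had 865 RPKM in wild type from 2339 reads, and 0.262 RPKM in the flbE deletion from 1 read. Among the other deletions it was read in flbB (0.276 RPKM), flbC (110.2) and swi6 (21.7) and listed at 0 in the remaining 5, so no deletion library overlapped wild type. It was 3299-fold lower (591 to 130346). PDE_09239, named tetrahydroxynaphthalene reductase after another enzyme of melanin synthesis, fell from 651 to 0.518 RPKM, with 0 to 109.7 RPKM in the other 8. It was 1258-fold lower (430 to 6104). The polyketide synthase gene between them, PDE_09237, named for monodictyphenone, fell from 204 to 0.180 RPKM, and its highest level in any other deletion was 27.5 RPKM in flbC. The other 2 pigment genes kept a good part of their level. A further scytalone dehydratase gene, PDE_04496, had 417 RPKM in wild type and 155 in the flbE deletion, and was 2.69-fold lower (2.43 to 2.98). The naphtho-gamma-pyrone polyketide synthase gene PDE_09491, whose product class colours conidia of some Aspergillus species, went from 49.2 to 16.04 RPKM and was 3.07-fold lower (2.81 to 3.35). In both genes the flbE deletion lay within the range of the other 8, which was 0 to 195 RPKM for PDE_04496 and 0.263 to 31.7 RPKM for PDE_09491. The 4 pigment genes had a median of -4.75 relative to the median gene and the 3 kept regulators -1.19, which was -0.65 for 4 regulators with no filter on low values. Unshifted and relative to the median gene alike, 4 of the 4 pigment genes and 2 of the 3 regulators were lower, and 0 were higher. Over all genes 21.2% were lower and 10.9% higher, or 10.7% and 16.7% relative to the median gene.

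**Figure D2:**
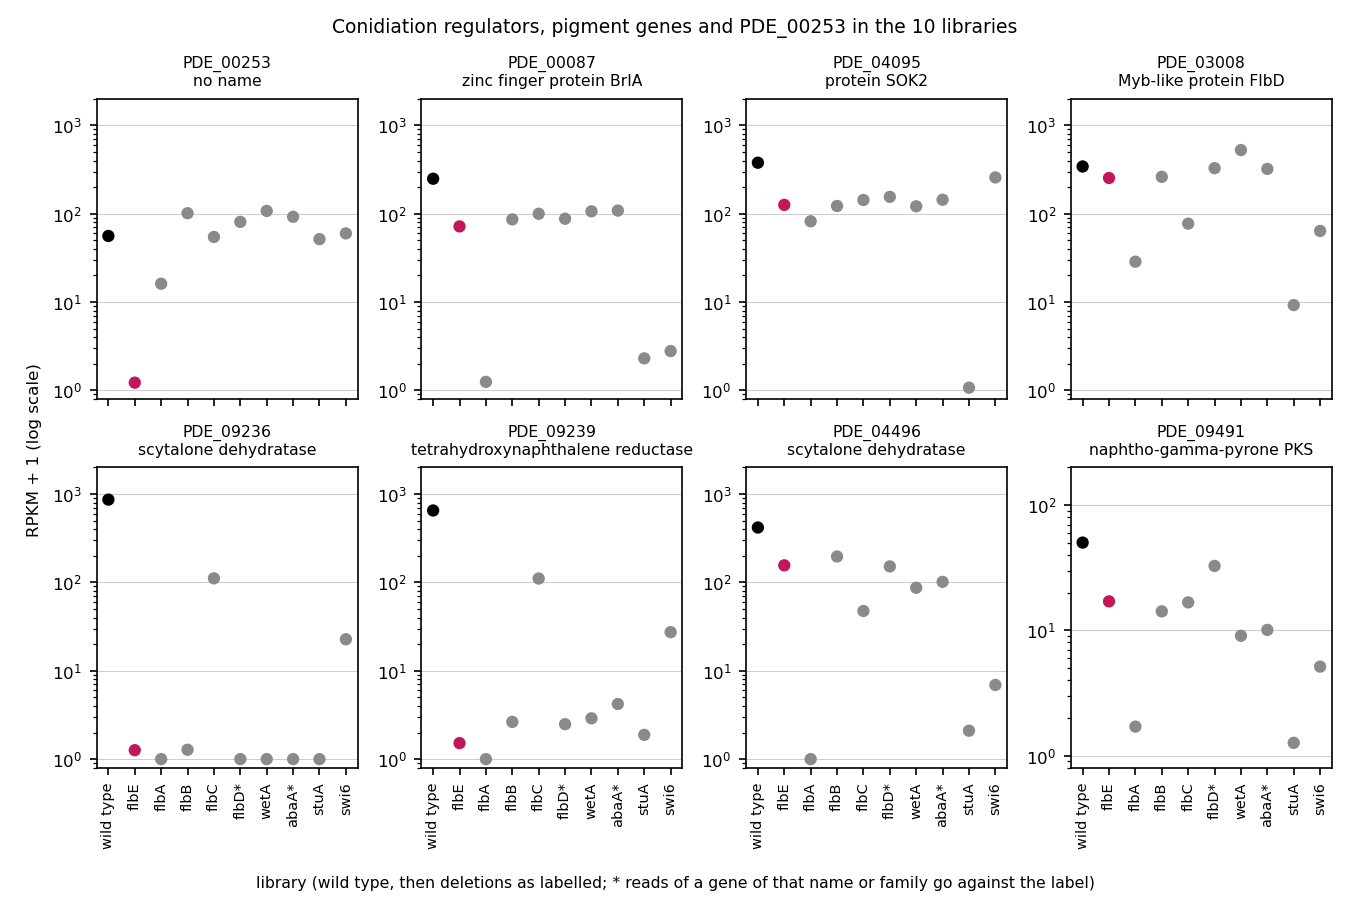
RPKM + 1 (log scale) of PDE_00253, 3 conidiation regulators and 4 pigment genes in wild type (black), the flbE deletion (red) and the other 8 deletions (grey), 1 library each. PDE_00253 is at 0.223 RPKM in the flbE deletion alone, PDE_09236 is near 0 in 7 of the 9 deletions, and FlbD in the flbE deletion lies close to wild type.

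PDE_09236 and PDE_09239 sat in a stretch of neighbours that fell together. It is called the melanin run here after the names of these genes only. The polyketide synthase gene in it, PDE_09237, is named for monodictyphenone, and whether the run makes melanin was not tested. Taking kept genes in the order of their locus numbers, 65 runs of at least 4 genes were lower throughout, with 354 genes, or 18.2% of all lower genes. Runs of higher genes were shorter: 14 of them, with 58 genes or 5.84% of the higher genes, and none over 5 genes long. Runs were taken on the unshifted scale, where 21.2% of all genes were lower and 10.9% higher, which by itself favours lower runs. They were not counted relative to the median gene, so whether lower genes lie together more than higher genes was not tested. The melanin run covered 19 genes from PDE_09227 to PDE_09245, with 10.2 to 865 RPKM in wild type and 0 to 11.2 RPKM in the flbE deletion. Its members include PDE_09242, annotated with methyltransferase activity, which fell from 662 to 0.296 RPKM, and PDE_09243, annotated as a sequence-specific DNA-binding factor of RNA polymerase II, which fell from 91.5 to 0.109 RPKM. PDE_09235, of the small heat shock proteins of the HSP20 family, fell from 107 RPKM to 0 reads and was at least 198-fold lower. PDE_09230, a sterol 14-demethylase by name, fell from 93.3 to 1.78 RPKM. The flbC and swi6 deletions differed from the flbE deletion over the same stretch. PDE_09235 stood at 1610.2 and 182 RPKM there, and PDE_09228 at 2053 and 319 RPKM, all above the wild-type levels of 107 and 45.6 RPKM. PDE_09227 was above wild type in both as well, but all other genes of the run were below it in both. PDE_09242, for example, had 42.3 and 9.58 RPKM there.

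The longest run had 21 genes, from PDE_00792 to PDE_00812. Its levels were 12.9 to 235.8 RPKM in wild type, with a median of 66.6, and 0.274 to 9.99 RPKM in the flbE deletion, with a median of 2.28. Only 2 members carry names, cytochrome P450 monooxygenase PDE_00811 and pyrroline-5-carboxylate reductase PDE_00812. PDE_00811 fell from 74.0 to 2.66 RPKM, and PDE_00810, annotated with phosphopantetheine binding as in enzymes that carry growing chains, fell from 12.9 to 3.69 RPKM. The largest fall was that of PDE_00806, from 236 to 1.93 RPKM, and it was 122-fold lower (72.4 to 224). No other deletion had more than 11.8 RPKM for any gene of this run, and most of the stretch was read mainly in wild type. Its end was less distinct. PDE_00812 had 14.5 RPKM in wild type, 11.8 in the flbC deletion and 9.37 in the library labelled flbD deletion. PDE_00810 had 12.9 RPKM in wild type and 7.01 in the swi6 deletion. A shorter run of 7 genes, PDE_09758 to PDE_09764, held 4-hydroxyphenylpyruvate dioxygenase PDE_09761, an enzyme of tyrosine breakdown. It fell from 883 to 3.42 RPKM and was 258-fold lower (180.4 to 382); among the other 8 it ranged from 3.47 to 6029.8 RPKM, the highest in swi6. Its neighbour PDE_09760, a DOPA 4,5-dioxygenase gene, fell from 338 to 7.04 RPKM.

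**Figure D3:**
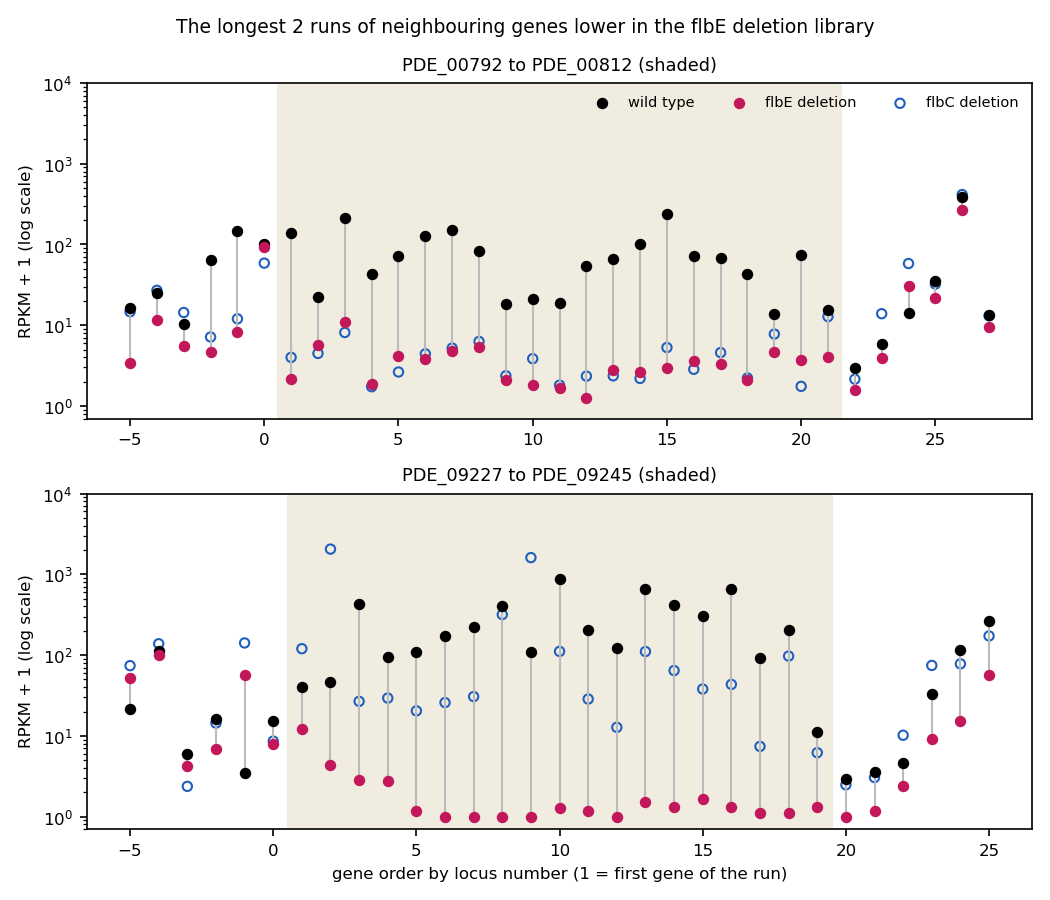
RPKM + 1 (log scale) of the genes of the longest 2 runs (shaded) and their neighbours, in gene order, in wild type (black), the flbE deletion (red) and the flbC deletion (blue rings). In the shaded stretches the flbE deletion lies between 0 and 11.2 RPKM; the flbC deletion is low in the upper run and, for most genes, between wild type and the flbE deletion in the lower.

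Many genes of secreted enzymes that break down plant polysaccharides were lower in the flbE deletion; over all genes the share lower was 21.2%, and 10.7% relative to the median gene. Of 13 kept amylolytic genes, for starch, 7 fell and 0 rose (median -0.82 relative to the median gene). Glucoamylase Amy15A (PDE_09417), which frees glucose from starch ends, had 1681 RPKM in wild type, 163 in the flbE deletion and 17.0 to 1384 RPKM in the other 8, and was 10.3-fold lower (9.86 to 10.8). Alpha-amylase Amy13A (PDE_01201), which cuts within starch, had 1237 RPKM in wild type, 198 in the flbE deletion and 5.14 to 585 RPKM in the other 8, and was 6.24-fold lower (5.98 to 6.51). In both genes wild type lay above all 9 deletions, with the flbE deletion within the range of the rest. Of 69 hemicellulase genes 35 fell and 3 rose (median -0.63, and -0.26 with a pseudocount of 5). The falls were led by a putative beta-glucuronidase, PDE_01949, from 65.2 to 1.91 RPKM. Of the 3 that rose, alpha-1,6-mannanase PDE_00051 went from 18.4 to 166 RPKM. It is listed by the word mannanase in its name, and whether it acts on plant polysaccharides was not tested. Of 26 pectinase genes 12 fell and 0 rose (median -0.58, and -0.29 with a pseudocount of 5), among them an endopolygalacturonase, PDE_04162, from 18.9 to 3.25 RPKM. The cellulase list, which also holds exo-beta-1,3-glucanases, had 11 of 29 genes lower and 2 higher (median -0.29, and -0.16 with a pseudocount of 5). Cellulases proper had low levels in both libraries: the cellulose monooxygenase Cel61A (PDE_05633) fell from 12.9 to 0.551 RPKM, and a putative cellobiohydrolase (PDE_05445) rose from 0.428 to 4.04 RPKM on 3 wild-type reads. The beta-glucosidase BGL1 (PDE_02736) fell from 192 to 55.3 RPKM. With the median shift taken off, the genes 2-fold lower were 5 of 13 amylolytic, 22 of 69 hemicellulase, 6 of 26 pectinase and 5 of 29 cellulase genes, and the genes 2-fold higher were 1, 7, 0 and 3.

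Enzymes acting on the fungal wall and on protein showed a few deep falls; over all genes 21.2% fell and 10.9% rose, or 10.7% and 16.7% relative to the median gene. Of 45 chitin genes 15 fell and 1 rose (median -0.15, and -0.096 with a pseudocount of 5), but 11 were lower and 7 higher relative to the median gene. Putative chitinase PDE_01168 had 528 RPKM in wild type against 3.59 in the flbE deletion, and the other 8 had a lowest of 0.324, a median of 2.11 and a highest of 14039 RPKM, the highest in stuA. It was 147-fold lower (100.1 to 226). The 1 chitin gene that rose on the unshifted scale, putative chitinase PDE_01573, went from 11.0 to 350.4 RPKM, with 6.45 to 4896 RPKM in the other 8. The most abundant chitinase of wild type, PDE_08122, fell from 24408 to 6328 RPKM. Of 32 genes for alpha- and beta-glucan of the wall 14 fell and 1 rose (median -0.34, and -0.19 with a pseudocount of 5), with 8 lower and 2 higher relative to the median gene. Alpha-1,3-glucanase PDE_06621, which breaks down a glucan of the outer wall, had 979 RPKM in wild type, 8.29 in the flbE deletion and at most 9.33 RPKM in the other 8, and was 118-fold lower (98.8 to 142): every deletion library was far below wild type. Beta-1,3-glucanase PDE_05515 fell from 2221 to 116 RPKM. Of 59 peptidase genes 20 fell and 6 rose (median -0.33), with 11 lower and 9 higher relative to the median gene. Aspergillopepsin I (PDE_07927), a secreted acid protease, had 1047 RPKM in wild type and 5.28 in the flbE deletion, with 5.20 to 629.8 RPKM in the other 8, and was 198-fold lower (148 to 272). It stayed high in the flbA and stuA deletions, at 498 and 629.8 RPKM, and was low in the rest. A gene annotated with metalloendopeptidase activity, PDE_07936, fell from 4925 to 44.7 RPKM. The ribonuclease T1 gene PDE_01330, for a secreted RNase, fell from 415 to 7.65 RPKM. Of 28 lipase and cutinase genes 10 fell and 1 rose (median -0.18, and -0.093 with no filter on low values), with 6 lower and 3 higher relative to the median gene. A putative cutinase gene, PDE_07475, fell from 2316 to 521 RPKM.

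The gene with the most reads in the study, PDE_06605, which has no name, took 7.73% of the wild-type reads and 0.471% of those of the flbE deletion. It went from 203015 to 12369 RPKM, and the other 8 ranged from 1938 to 732203 RPKM. PDE_06607, without a name and close to it by locus number, fell likewise, from 75215 to 5997 RPKM. A transporter gene without a name, PDE_09377, fell from 3675 to 16.3 RPKM, and the oligopeptide transporter PDE_05534 from 125 to 2.11 RPKM. Other genes without a name also fell far: PDE_01632 went from 2066 to 3.67 RPKM and PDE_00509 from 1563 to 2.80 RPKM.

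Many chaperone genes rose, the most abundant of them by over 10-fold. Of 43 kept members 17 rose and 7 fell, against 10.9% and 21.2% of all genes. Their median was 0.45 relative to the median gene, with 18 higher and 5 lower on that scale. Their share of all reads was 0.590% in wild type and 5.83% in the flbE deletion, the highest of the 10 libraries; the next was 4.997% in flbB, and flbC and swi6 had 1.29% and 0.814%. The Hsp70 gene PDE_02379, whose product holds unfolded protein, had 392 RPKM in wild type against 11056 in the flbE deletion, and the other 8 had a lowest of 878, a median of 5434 and a highest of 8343 RPKM. It was 28.2-fold higher (27.3 to 29.1). HtpG (PDE_09149), a chaperone of the Hsp90 family, had 428 RPKM in wild type, 7684 in the flbE deletion and 961 to 6601 RPKM in the other 8, and was 17.95-fold higher (17.4 to 18.5). ClpB (PDE_00624), which pulls proteins out of aggregates, had 18.5 RPKM in wild type, 3236 in the flbE deletion and 66.1 to 3127 RPKM in the other 8, and was 175-fold higher (154 to 200.2). In these 3 genes wild type was the lowest of the 10 libraries and the flbE deletion the highest. Further genes of the list rose as well: DnaJ homolog PDE_09312 from 112 to 1529 RPKM, the DnaK gene PDE_03760 from 142 to 1197 RPKM, GrpE (PDE_08711) from 33.9 to 514 RPKM and GroEL (PDE_04315) from 133 to 612 RPKM. Calnexin (PDE_08629), a chaperone of the endoplasmic reticulum, fell from 156 to 53.2 RPKM and the DnaJ-related SCJ1 gene PDE_04145 fell from 37.4 to 9.63 RPKM. HSP20 family genes went opposite ways: PDE_00322 rose from 28.8 to 344 RPKM, and PDE_09235, in the melanin run, fell to 0.

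**Figure D4:**
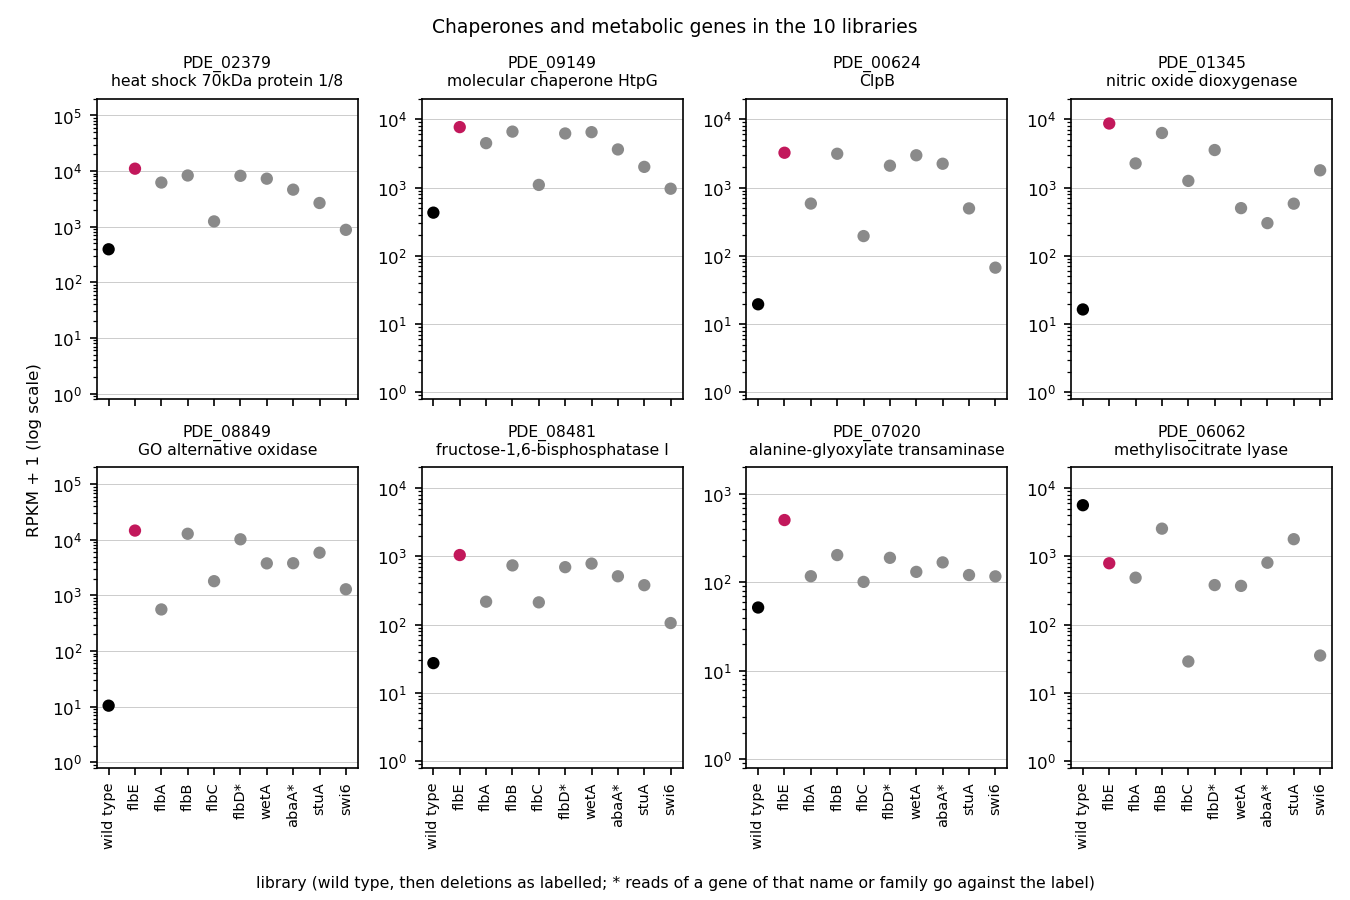
RPKM + 1 (log scale) of 3 chaperone genes and 5 metabolic genes in wild type (black), the flbE deletion (red) and the other 8 deletions (grey), 1 library each. Wild type is lowest and the flbE deletion highest in the first 7 genes; methylisocitrate lyase runs the other way, with wild type highest.

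Nitric oxide dioxygenase PDE_01345, a flavohemoglobin-type enzyme that turns nitric oxide into nitrate, rose the most among named genes. It had 15.4 RPKM in wild type from 100 reads and 8676 RPKM in the flbE deletion from 79601 reads, and the other 8 had a lowest of 300.3, a median of 1519.9 and a highest of 6301 RPKM. It was 564-fold higher (464 to 694), and wild type lay below all 9 deletions with no overlap. PDE_08849, without a name but annotated with alternative oxidase activity, a terminal oxidase that bypasses part of the respiratory chain, went from 9.43 to 14677 RPKM, with 559 to 12861 RPKM in the other 8. It was 1557-fold higher (1187 to 2085), and its difference of 10.46 was the largest rise of all kept genes. Unnamed genes PDE_00175, PDE_02095 and PDE_02505 reached 17286, 14638 and 16165 RPKM in the flbE deletion from 39.7, 34.5 and 80.1 RPKM, among the most abundant transcripts of that library. The plasma membrane H+-transporting ATPase PDE_01674, which drives uptake in fungi, rose from 559 to 4843 RPKM, above the 953 to 3950 RPKM of the other 8.

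Of 83 kept genes of the standard respiratory chain and ATP synthase 12 rose and 1 fell, where 10.9% and 21.2% of all genes did (median 0.29). Relative to the median gene 17 were higher and 0 lower, where 16.7% and 10.7% of all genes were. Cytochrome c (PDE_08701), the carrier between complexes III and IV, went from 357 to 1917 RPKM and was 5.37-fold higher (4.94 to 5.85). Of 74 genes of glycolysis, fermentation and the TCA cycle 13 rose and 12 fell (median 0.39), with 20 higher and 6 lower relative to the median gene. Citrate synthase PDE_09135, the entry enzyme of the TCA cycle, had 116 RPKM in wild type, 1867 in the flbE deletion and 336 to 1352 RPKM in the other 8, and was 16.1-fold higher (15.1 to 17.3); the flbE deletion was the highest of the 10 libraries. Malate synthase PDE_03483, of the glyoxylate cycle, went from 114 to 1109 RPKM, and isocitrate lyase PDE_08297, its partner, from 111 to 236 RPKM. Fructose-1,6-bisphosphatase PDE_08481, which works in the direction of sugar synthesis, had 26.2 RPKM in wild type, 1042 in the flbE deletion and 104 to 781 RPKM in the other 8, and was 39.7-fold higher (33.7 to 47.2). Glycolytic enolase (PDE_02546) rose from 258 to 779.6 RPKM, and glyceraldehyde 3-phosphate dehydrogenase (PDE_09952) from 867 to 3248 RPKM. The members that fell include methylisocitrate lyase PDE_06062, of propionate breakdown, from 5601 to 789 RPKM, hexokinase PDE_03526, from 31.5 to 5.94 RPKM, and several alcohol dehydrogenase genes such as PDE_09616, from 39.7 to 8.35 RPKM.

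Ribosome biogenesis genes had the highest median of the 32 lists. Of 96 kept genes for rRNA processing, ribosome assembly and RNA polymerase I, 28 rose and 0 fell, where 10.9% and 21.2% of all genes did. Their median was 1.09 relative to the median gene, with 52 higher and 0 lower on that scale, where 16.7% and 10.7% of all genes were. The U3 small nucleolar RNA-associated protein 19 gene PDE_06465 had 18.8 RPKM in wild type and 121 in the flbE deletion, and the other 8 had a lowest of 13.8, a median of 79.7 and a highest of 122 RPKM; it was 6.42-fold higher (5.45 to 7.60). Nucleolar protein 58 (PDE_05114), a core protein of box C/D particles, rose from 55.7 to 192 RPKM. Ribosomal proteins themselves, cytosolic and mitochondrial together, stayed near the median gene (2 of 120 higher, 1 lower, median 0.03, and -0.05 with a pseudocount of 5), with 7 higher and 0 lower relative to the median gene. Of 95 genes of DNA replication and the cell cycle 28 fell and 3 rose (median -0.36), such as a replication factor C subunit gene, PDE_01938, from 23.5 to 6.54 RPKM. With the median shift taken off, 3 of the 95 were lower and 3 higher. Among 8 histone genes 1 rose, the centromeric H3-like PDE_01105, from 24.4 to 86.6 RPKM (list median 0.30, 1 higher and 0 lower relative to the median gene), and of 41 proteasome genes 6 fell and 1 rose (median -0.17), with 1 lower and 1 higher relative to the median gene.

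**Figure D5:**
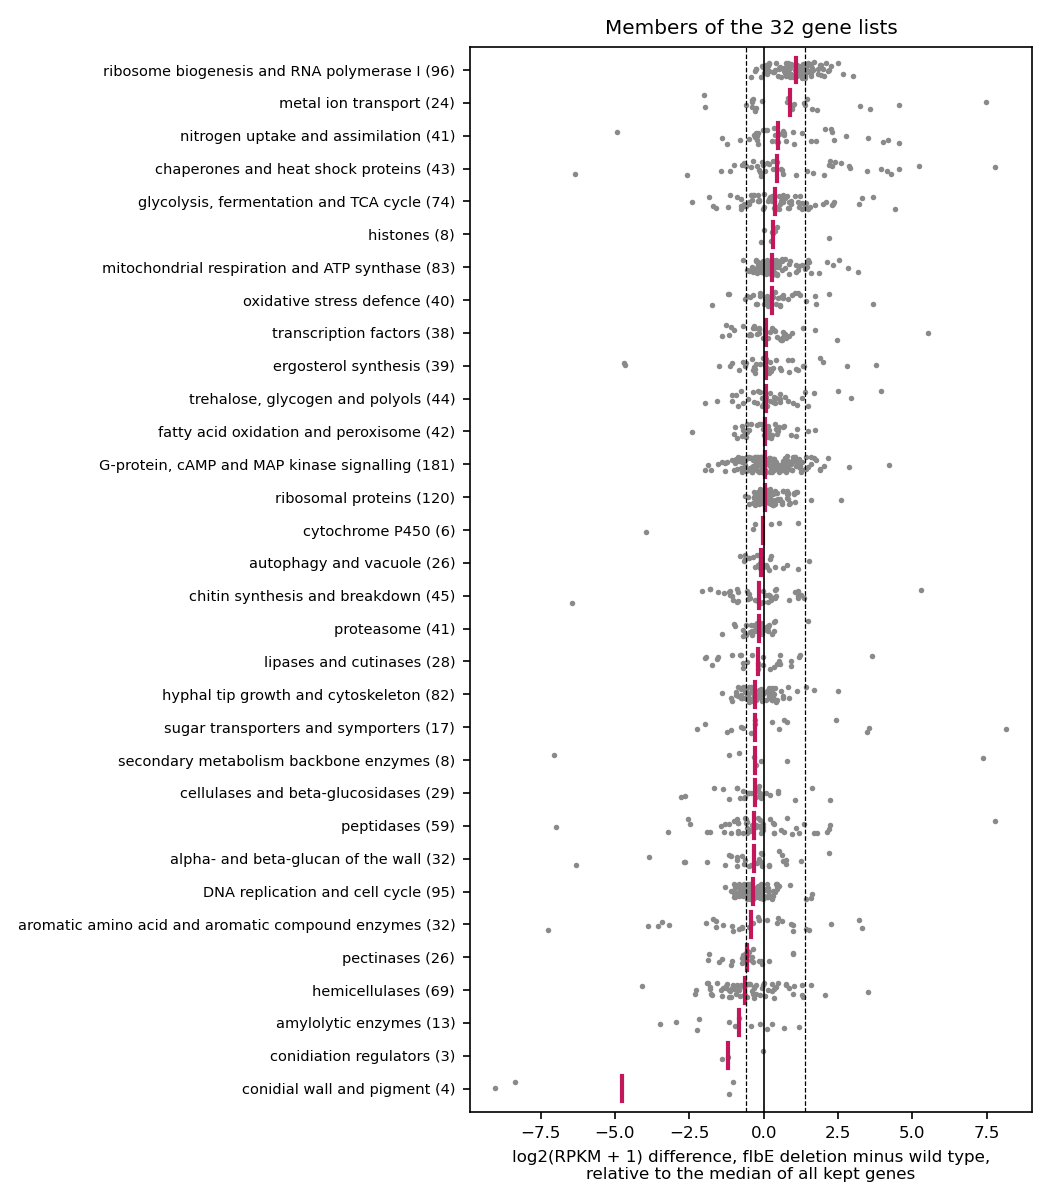
Difference in log2(RPKM + 1), flbE deletion minus wild type, relative to the median kept gene, for the members of the 32 gene lists (grey points, number of kept members in parentheses), with list medians as red bars and dashed lines at the 2-fold limits of the unshifted scale. Medians run from -4.75 for the 4 pigment genes to 1.09 for ribosome biogenesis. The lists are drawn with their part-word matches.

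Over all genes 10.9% rose and 21.2% fell, or 16.7% and 10.7% relative to the median gene, against which the lists for uptake and nitrogen use can be read. In the nitrogen list 11 of 41 genes rose and 4 fell (median 0.47), and of its 38 whole-word matches 11 rose and 3 fell (median 0.53). Relative to the median gene 13 of the 41 were higher and 3 lower. Urate oxidase PDE_03841 and allantoinase PDE_04944, enzymes of purine breakdown, went from 41.4 to 757 RPKM and from 9.01 to 122 RPKM. The amino acid transporter PDE_00845 had 133 RPKM in wild type, 1826 in the flbE deletion and 28.1 to 1672 RPKM in the other 8, and was 13.7-fold higher (12.9 to 14.5). Glutamine synthetase PDE_08346 rose from 263 to 959 RPKM, and NADP+ glutamate dehydrogenase PDE_06117 fell from 26.4 to 11.0 RPKM. Of 24 metal ion transport genes 7 rose and 2 fell (median 0.87), with 10 higher and 2 lower relative to the median gene. The Na+-exporting ATPase PDE_03497, which expels sodium, had 6.44 RPKM in wild type, 1011 in the flbE deletion and 0.821 to 1799.7 RPKM in the other 8, and was 157-fold higher (130 to 192). Zinc transporter PDE_05465 rose from 2.13 to 55.2 RPKM, and the other 8 had a lowest of 0.858, a median of 2.15 and a highest of 157 RPKM. Among 17 sugar transporter genes 4 rose and 6 fell (median -0.28, and -0.0067 with the filter at a mean of 5 RPKM), with 4 higher and 4 lower relative to the median gene. The sugar:H+ symporter PDE_00197 went from 2.58 to 776 RPKM, with 4.47 to 818 RPKM in the other 8.

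Most genes of tip growth and signalling, the setting in which FlbE works in Aspergillus nidulans, did not pass 2-fold. Of 82 genes of hyphal tip growth and the cytoskeleton 17 fell and 3 rose (median -0.28), and relative to the median gene 3 were lower and 4 higher; of all genes 21.2% fell and 10.9% rose, or 10.7% and 16.7% relative to the median gene. A kinesin gene, PDE_05266, went from 8.61 to 2.42 RPKM, and a septin gene, PDE_06826, from 169.7 to 66.9 RPKM. When part-word matches were taken out, 10 of 55 genes fell and 0 rose (median -0.32), with 2 lower and 0 higher relative to the median gene. Of 181 genes matched for G-protein, cAMP and MAP kinase signalling 29 fell and 13 rose (median 0.04), and relative to the median gene the balance turned, with 9 lower and 28 higher. Only 39 of the 181 are whole-word matches, and the others are not shown to be signalling genes. Of the 39 whole-word matches 7 fell and 2 rose (median -0.08), against 1 lower and 6 higher relative to the median gene. Of 3 genes named p38 MAP kinase, PDE_05603 rose from 2.37 to 46.7 RPKM and PDE_02510 from 4.72 to 18.3 RPKM, while PDE_00126 had 194 and 214 RPKM. A dual specificity MAP kinase phosphatase gene, PDE_07523, fell from 282 to 86.5 RPKM, and a G protein alpha subunit gene, PDE_04835, from 43.8 to 19.6 RPKM. Among 38 transcription factor genes 6 fell, BrlA included, and 3 rose (median 0.09, and 0.04 with a pseudocount of 5), with 4 lower and 4 higher relative to the median gene. The zinc finger gene PDE_07902 rose from 65.8 to 2339 RPKM, with 164 to 3129.9 RPKM in the other 8, and the ATF/CREB family gene PDE_04903 from 143 to 363 RPKM.

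Enzymes for aromatic compounds went both ways, with 15 of 32 genes lower and 5 higher (median -0.42), or 12 and 5 relative to the median gene. Salicylate hydroxylase genes PDE_02118 and PDE_09911 fell from 100.2 to 4.19 RPKM and from 67.8 to 3.45 RPKM, while a further gene of that name, PDE_07956, rose from 22.7 to 178 RPKM together with catechol 1,2-dioxygenase PDE_05239, from 59.2 to 417 RPKM. Of 8 secondary metabolism backbone genes 3 fell and 1 rose (median -0.29, with -0.61 and -0.063 at pseudocounts of 0.1 and 5), or 2 and 1 relative to the median gene; the 1 was norsolorinic acid ketoreductase PDE_04277, from 3.53 to 573 RPKM. Of all genes 10.9% rose and 21.2% fell, or 16.7% and 10.7% relative to the median gene. A further 5 lists had medians between -0.09 and 0.28, and in 4 of them, all but oxidative stress defence, the balance of the directions turned with the median shift. Of 40 oxidative stress defence genes 5 rose and 4 fell (median 0.28), or 8 and 3 relative to the median gene. Of 39 ergosterol synthesis genes 4 rose and 8 fell (median 0.09, and 0.037 with no filter on low values), or 8 and 5. Of 44 genes of trehalose, glycogen and polyols 5 rose and 8 fell (median 0.09), or 8 and 4, and of their 28 whole-word matches 5 rose and 4 fell (median 0.22), or 8 and 1. Of 42 genes of fatty acid oxidation and the peroxisome 2 rose and 9 fell (median 0.05, and 0.0053 with no filter on low values), or 4 and 1. Of 26 genes of autophagy and the vacuole 1 rose and 4 fell (median -0.09), or 2 and 0. The 6 kept cytochrome P450 genes, of which 0 rose and 1 fell, or 1 and 1, gave no stable median: it was -0.03, with 0.14 at a pseudocount of 5 and -1.40 with the filter at a mean of 5 RPKM. Single members moved far: the superoxide dismutase gene PDE_00326 rose from 5.80 to 64.1 RPKM, and a trehalase gene, PDE_01403, from 23.0 to 276 RPKM.

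A small set of genes was read in 1 of the 2 libraries only, with 0 reads against at least 50. There were 9 such genes in wild type, 5 of them in the melanin run, and 4 in the flbE deletion. Tryptophanase PDE_05889, which splits tryptophan, had 238 reads in wild type and 0 in the flbE deletion, and PDE_09234, without a name, had 1629 and 0. The 4 genes with 0 wild-type reads were PDE_06293 (113 reads in the flbE deletion), PDE_06915 (93 reads), zinc transporter PDE_06461 (63 reads) and PDE_01344 (51 reads), which lies next to nitric oxide dioxygenase PDE_01345 by locus number.

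The flbE deletion library was also set against other deletions, which leaves wild type out. Against the 1 library of the flbB deletion, whose product works with FlbE in Aspergillus nidulans, 81 genes were higher and 155 lower (2.58% of 9134 together). No such count was made against another single deletion library, so whether the small share is particular to flbB was not tested. Against the median of the 8 other deletion libraries 231 were higher and 225 lower (4.99%). A median of 8 libraries is not a like measure to 1 library. Against wild type, as given above, it was 32.1%. Methylisocitrate lyase PDE_06062 had 2539.7 RPKM in the flbB deletion and 789 RPKM in the flbE deletion, and PDE_00253 had 100.3 and 0.223 RPKM. Just 5 genes stood at least 2-fold apart from all other 9 libraries in the flbE deletion, 2 above and 3 below. The alanine-glyoxylate transaminase gene PDE_07020, whose enzyme turns glyoxylate into glycine, had 51.0 RPKM in wild type, a lowest of 100.4, a median of 125 and a highest of 203 RPKM in the other 8 deletions, and 507 RPKM in the flbE deletion. It was 9.95-fold higher (8.85 to 11.2), and the flbE library was the single one above 203.0 RPKM. PDE_07025, annotated with zinc ion binding, had 0.945 RPKM in wild type against 4.58 in the flbE deletion, with at most 1.71 RPKM elsewhere. Of the 3 below, PDE_00738 had 0 reads against 18 in wild type, PDE_02930 had 1 read against 16, and the third was PDE_00253. All but PDE_07020 and PDE_00253 rest on fewer than 50 reads in the 2 libraries together. Few genes also stood apart in the libraries labelled flbB, flbD, wetA and abaA deletion. They had 3, 7, 12 and 18 genes above all others, and 2, 1, 1 and 0 below.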

How the data were processed

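Libraries were processed by the submitters with CASAVA 1.8, per the submitters' processing notes; the sources used here name no aligner, genome build or annotation. For each gene and library the authors deposited a count of reads, an RPKM and the percent of the gene covered by reads. RPKM recomputed from count, coding length and read total matched the deposited RPKM, and a dash was read as 0. Coding lengths are multiples of 3 for 9856 of 9859 genes. Groups were taken from the genotype labels, with 1 library each.

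Genes with a mean of at least 1 RPKM over the 10 libraries were kept, and differences were taken on log2(RPKM + 1), a pseudocount that makes differences of weakly expressed genes smaller. Counting intervals (95%) are exact conditional Clopper-Pearson intervals from the 2 counts and read totals. Where 1 library had 0 reads, 3 reads were put in its place and the fold is a lower bound. The intervals cover counting error only. Reads carry no molecular identifiers, so copies of the same molecule could not be told apart, and the intervals do not allow for them.

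The 32 gene lists are text patterns searched in the product and KEGG names, which were informative for 3443 kept genes. The members and lists were chosen with earlier results of these data known. Genes named were the 15 highest and 15 lowest that have a name and reach 10 RPKM in 1 of the 2 libraries, the 5 highest and 5 lowest without a name, the 3 most different members of each list in each direction past 2-fold, all conidiation and pigment genes, the genes of the searches for deleted, apart and single-library genes, the longest runs and the most read genes. Other list members were named after their values were seen, and so were the 4 lists repeated without part-word matches. Alternatives were pseudocounts of 0.1 and 5, filters at 0 and 5 RPKM, median-of-ratios and upper-quartile scaling, read totals without PDE_06605, the flbE deletion library thinned to the wild-type total, and stricter calls. Scripts used Python 3.11.15, numpy 2.4.6, pandas 2.3.3 and scipy 1.17.1, and were tested on simulated data. Promoters, motifs and other sequences were not analysed here.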

Additional observations from a re-analysis of the deposited data

How the results depend on the processing

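With 1 library a side the limits are those of single cultures: neither the spread between cultures nor that of library preparation is known. No paired analysis was possible because each genotype has 1 library and no test was run. The 1940 genes lower became 1193 with a pseudocount of 5, 1047 with median-of-ratios scaling and 1235 with upper-quartile scaling. They became 1676 with the filter at a mean of 5 RPKM. There were 1154 (with 678 higher) when the counting interval had to lie wholly beyond 2-fold. Other settings raised the count of lower genes, to 2229 with a pseudocount of 0.1 and 1991 without a filter. It was 1966 with thinning and 2324 with totals that leave out the most read gene. At 4-fold there were 377 higher and 421 lower. The median difference of -0.40 was -0.43 and -0.31 with pseudocounts of 0.1 and 5, -0.36 without a filter, -0.0359 with median-of-ratios scaling, -0.14 with upper-quartile scaling and -0.50 with totals that leave out the most read gene. The cause of these shifts was not tested beyond what each setting changes. The 993 genes higher all stayed higher under median-of-ratios and upper-quartile scaling. Both scalings raise the flbE deletion relative to wild type nearly alike for all genes, so this was fixed beforehand and shows no stability. Totals that leave out the most read gene move the other way, and 894 of the 993 stayed higher with them. Of the 32 lists, 30 kept the sign of their median relative to the median gene under the other pseudocounts, filters and thinning, the exceptions being cytochrome P450 (-1.40 to 0.14) and ribosomal proteins (-0.05 to 0.06). The scaling alternatives move most genes nearly alike, so that sign is largely fixed under them and is not counted. The tally also leaves out the removal of part-word matches. That step turned the median of the G-protein, cAMP and MAP kinase list from 0.04 to -0.08. Of 249 genes named, 0 turned direction past 2-fold. Many were chosen for large differences, so that 0 was largely fixed by the choice and shows no stability. With a pseudocount of 5, 96 of the 249 moved by more than their counting error. Depth limits genes near 3 reads, which is 0.413 RPKM on 1 kilobase in the flbE deletion library.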

Other observations

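The third-longest run of lower genes held 15 genes from PDE_09996 to PDE_10013, and its named members are enzymes of indole diterpene and related synthesis by name. Geranylgeranyl diphosphate synthase PDE_10001, which makes the diterpene chain, had 69.8 RPKM in wild type, 21.3 in the flbE deletion and 0 to 35.8 RPKM in the other 8 deletions. Paspaline synthase PDE_10000 fell from 57.6 to 18.9 RPKM, the FAD dependent monooxygenase PDE_09999 from 136 to 49.4 RPKM and verruculogen synthase PDE_10009 from 199 to 56.6 RPKM. These falls were shallower than in the melanin run: PDE_10001 was 3.27-fold lower (2.67 to 4.03) and PDE_10009 3.52-fold lower (3.11 to 3.99). In all 4 genes the flbE deletion lay below wild type and within the range of the other 8, with 0 RPKM in at least 1 of them.

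Salicylate synthetase PDE_03182 had 866 RPKM in wild type against 255 in the flbE deletion, against a median of 12.6 RPKM in the other 8, so the flbE deletion was the highest deletion library and still 3.40-fold lower (3.24 to 3.56) relative to wild type. A fatty acid 8R-lipoxygenase gene, PDE_06706, of a family whose products act as sporulation signals in Aspergillus, fell from 267 to 29.1 RPKM, with 3.58 to 773 RPKM in the other 8.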
